A study of Mus musculus with 5 samples.

Results

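The claudins and the connexins, the protein families that build tight junctions and gap junctions, were followed across the 5 arrays of a fusion experiment between mouse embryonic stem cells and hepatoma cells. Members were all genes with a non-control probe whose transcript record carries a mouse Cldn symbol or a Gja, Gjb, Gjc, Gjd or Gje symbol. The array held 44 of them, 24 claudins and 20 connexins, read by 50 probes, among 18323 genes named in the same way. RefSeq lists 55 genes with such symbols, and 11 of these had no probe. ES was the E14 embryonic stem cell line, which carried red fluorescent protein and hygromycin resistance. Hepa1-6 was the mouse hepatoma line, which carried green fluorescent protein and neomycin resistance. EHe was an ES-Hepa hybrid, made by polyethylene glycol fusion of those lines and picked as an ES-like colony, so that the hybrids shared the markers of both parents. ES and EHe were kept undifferentiated in Glasgow medium with serum replacement, a small amount of fetal bovine serum and leukemia inhibitory factor. EHeD7 and EHeD14 were the hybrid after 7 and 14 days of differentiation in a serum-containing Dulbecco medium rich in glucose, like that of Hepa1-6, so medium and differentiation cannot be told apart.

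Claudins span the membrane of neighbouring epithelial cells and join into the strands that close the gap between them. Some claudins tighten this barrier, and others form pores for small ions. Connexins assemble into channels that join the cytoplasm of adjacent cells and let small molecules and ions pass. Embryonic stem cells communicate through gap junctions, hepatocytes use Gjb1 and Gjb2, and early embryonic and extraembryonic epithelia are known for Cldn6 and Cldn7.

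Each condition had 1 array, so no difference below has a replicate check, and no test between conditions was made. A level is the log2 of a probe's processed signal relative to the 75th percentile of its array. A gene counts as detected where the scanner software called its probe well above background. Where a gene was detected on only 1 of the 2 arrays compared, its fold is a lower bound, set against the higher of the dim probe's own signal and the lowest detected signal of that array, and is written as at least. Over 3-fold was used as the limit for counting a gene as higher or lower, and the share of all named genes past the same limit stands beside each count of members. The spread between repeated spots, a technical error within 1 array, had a median SD between 0.09 on EHeD7 and 0.14 on ES on the log2 scale, over 245 probes with 10 spots each. ES, EHe, EHeD7 and EHeD14 lay on 1 slide and Hepa1-6 on another, so slide and cell line cannot be told apart. The RNA came from whole cultures, in which fewer cells of a type and less RNA per cell cannot be told apart.

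The labels were set against marker lists, over which the linear levels of all listed probes were summed as a description. All 8 pluripotent cell markers on the array were detected on the ES array and the 3 hybrid arrays, with summed levels of 353, 398, 249 and 144, and 3 of 8 in Hepa1-6, with 23.7. Of 10 hepatocyte markers, 7 were detected in Hepa1-6, Alb and Afp among them and Ttr, Apoa1 and Ahsg not. Alb and Afp were not well above background in EHe, EHeD7 or EHeD14, and the summed hepatocyte level was 0.571 in EHeD14 against 229 in Hepa1-6.

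Of the 44 members, 28 were detected on at least 1 array, beside 84.3% of all named genes, and these were 16 claudins and 12 connexins. Detection covered 24 members in ES (75.9% of all named genes), 18 in EHe (70.3%), 26 at day 7 (79.4%), 25 at day 14 (76.5%) and 11 in Hepa1-6 (65.5%). The members were therefore detected at a lower share than named genes at large on every array, and the hepatoma held the fewest. Connexins numbered 11 of 20 in ES and 3 of 20 in Hepa1-6, Gja4 and Gjb1 among them. Claudins numbered 13 of 24 in ES and 8 in Hepa1-6. Detected on each of the other 4 arrays and not in Hepa1-6 were 10 members (8.57% of all named genes), among them Cldn5, Cldn6, Cldn7, Cldn19, Gja10, Gjb2, Gjb5, Gjc1 and Gjd3. In Hepa1-6 alone, 0 members were detected, beside 1.93% of all named genes. Among the 16 detected on no array (15.7% of all named genes) were Cldn1, Cldn8, Cldn13, Cldn16, Cldn17, Cldn18, Cldn22, Cldn34b3, Gja6, Gjb6, Gjc3, Gjd2, Gjd4 and Gje1.

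**Figure D1:**
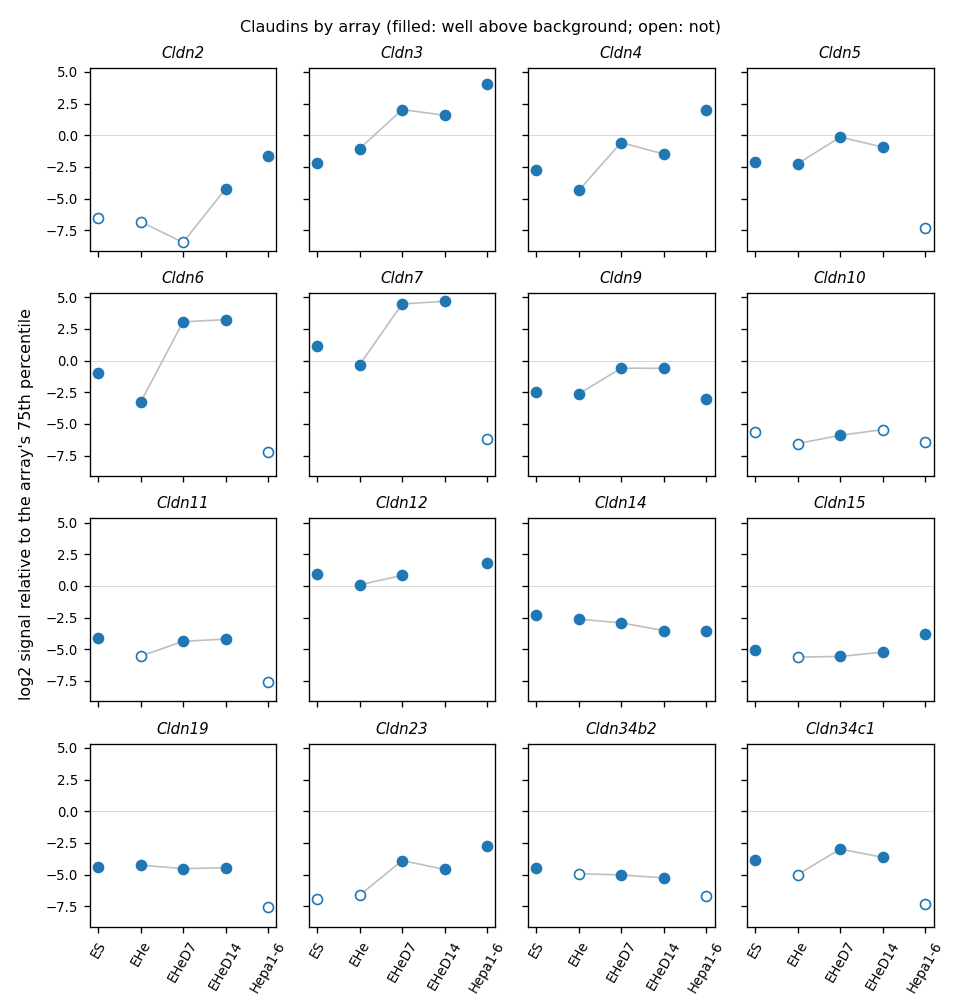
Log2 level of the 16 detected claudins, relative to the 75th percentile of each array, on each of the 5 arrays. Filled points were well above background and open points were not, the grey line joins the hybrid before and after differentiation, and Cldn12 has no point at EHeD14 because its spot was an outlier. Cldn6 and Cldn7 stand highest in the differentiated hybrids and are not well above background in Hepa1-6, while Cldn3 and Cldn4 stand highest in Hepa1-6.

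Claudins known from simple and embryonic epithelia were over 3-fold higher upon differentiation of the ES-Hepa hybrids. Cldn6, a claudin of embryonic epithelium, had log2 levels of -1.01 in ES, -3.29 in EHe, 3.06 at day 7, 3.23 at day 14 and -7.24, not well above background, in Hepa1-6. EHe was the lowest of the 4 arrays with a detected signal, 4.83-fold below ES, and both differentiated hybrids lay far above it, by 81.6-fold at day 7 and 91.6-fold at day 14. At day 14, Cldn6 was also 18.9-fold above ES and at least 371-fold above Hepa1-6. Cldn7, which is found along the sides of many epithelial cells, had log2 levels of 1.13 in ES, -0.33 in EHe, 4.47 at day 7, 4.68 at day 14 and -6.19, not well above background, in Hepa1-6. It was 28.0-fold higher at day 7 and 32.3-fold above EHe at day 14, and at least 1012-fold higher at day 14 than in Hepa1-6. For both genes the differentiated hybrids exceeded ES and EHe as well as the hepatoma.

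Cldn3 and Cldn4, barrier-forming claudins of gut, liver and gland epithelia, were higher both in Hepa1-6 and upon differentiation. Cldn3 had log2 levels of -2.17 in ES, -1.06 in EHe, 2.02 at day 7, 1.58 at day 14 and 4.07 in Hepa1-6. The differentiated hybrids lay between EHe and the hepatoma: day 7 was 8.46-fold and day 14 6.24-fold above EHe, and day 14 remained 5.59-fold below Hepa1-6. Cldn4 had log2 levels of -2.77 in ES, -4.36 in EHe, -0.58 at day 7, -1.48 at day 14 and 1.98 in Hepa1-6. It was 13.7-fold higher at day 7 and 7.33-fold above EHe at day 14, and its log2 level at day 14 was below that of Hepa1-6 by a difference of -3.46. In EHe, Cldn4 was 2.99-fold lower than in ES, just short of the limit.

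Cldn5, the main claudin of the endothelial barrier, had log2 levels of -2.14 in ES, -2.24 in EHe, -0.15 at day 7, -0.93 at day 14 and -7.29, not well above background, in Hepa1-6. It was 4.27-fold above EHe at day 7 and 2.49-fold at day 14, the latter short of 3-fold. Cldn9, a claudin needed in the inner ear, had log2 levels of -2.47 in ES, -2.63 in EHe, -0.60 at day 7, -0.61 at day 14 and -3.04 in Hepa1-6. It was 4.08-fold higher than in EHe on both days, and the parental lines and EHe lay within 1.49-fold of ES. Cldn34c1, a claudin of the X chromosome family, had log2 levels of -3.87 in ES, -2.98 at day 7 and -3.63 at day 14 and was not well above background in EHe and Hepa1-6. It was at least 3.63-fold higher than in EHe at day 7 and at least 2.32-fold at day 14, and with another background correction, normexp, the day 7 difference was 0.58 on the log2 scale, short of the limit.

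Cldn2 and Cldn23 were called higher in the hepatoma. Cldn2, which forms a pore for cations in leaky epithelia, was not well above background in ES, EHe and EHeD7, and had log2 levels of -4.23 in EHeD14 and -1.67 in Hepa1-6. Hepa1-6 exceeded ES by at least 13.4-fold, and day 14 was at least 3.80-fold above day 7. Cldn23 was not well above background in ES and EHe and had log2 levels of -3.89 at day 7, -4.58 at day 14 and -2.72 in Hepa1-6. Its level in Hepa1-6 was at least 6.49-fold above ES and 3.62-fold above EHeD14. With normexp, the log2 difference was 0.64 for Cldn2 between days 14 and 7 and 1.09 for Cldn23 between the parents, both short of the limit.

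The 7 detected claudins that did not pass 3-fold in any of the 5 main comparisons were Cldn10, Cldn11, Cldn12, Cldn14, Cldn15, Cldn19 and Cldn34b2. Cldn12, which is widely expressed, had log2 levels between 0.09 in EHe and 1.80 in Hepa1-6 on the 4 arrays with a value. Cldn14, known from the inner ear, was detected on all 5 arrays, with log2 levels between -3.59 in Hepa1-6 and -2.28 in ES. Cldn11, known from myelin and Sertoli cells, and Cldn19, known from kidney and retina, kept their detected log2 levels within -4.37 to -4.14 and -4.52 to -4.25. Cldn10 was detected in EHeD7 alone, at -5.90, though its signals not well above background in ES (-5.66) and EHeD14 (-5.45) were higher. Cldn15, a pore-forming claudin of the gut, was detected on all arrays but EHe, from -5.56 in EHeD7 to -3.77 in Hepa1-6. Its signal in EHe, not well above background, was -5.62. Cldn34b2 was detected in ES and the differentiated hybrids, from -5.25 to -4.51, and stood at -4.92, not well above background, in EHe.

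**Figure D2:**
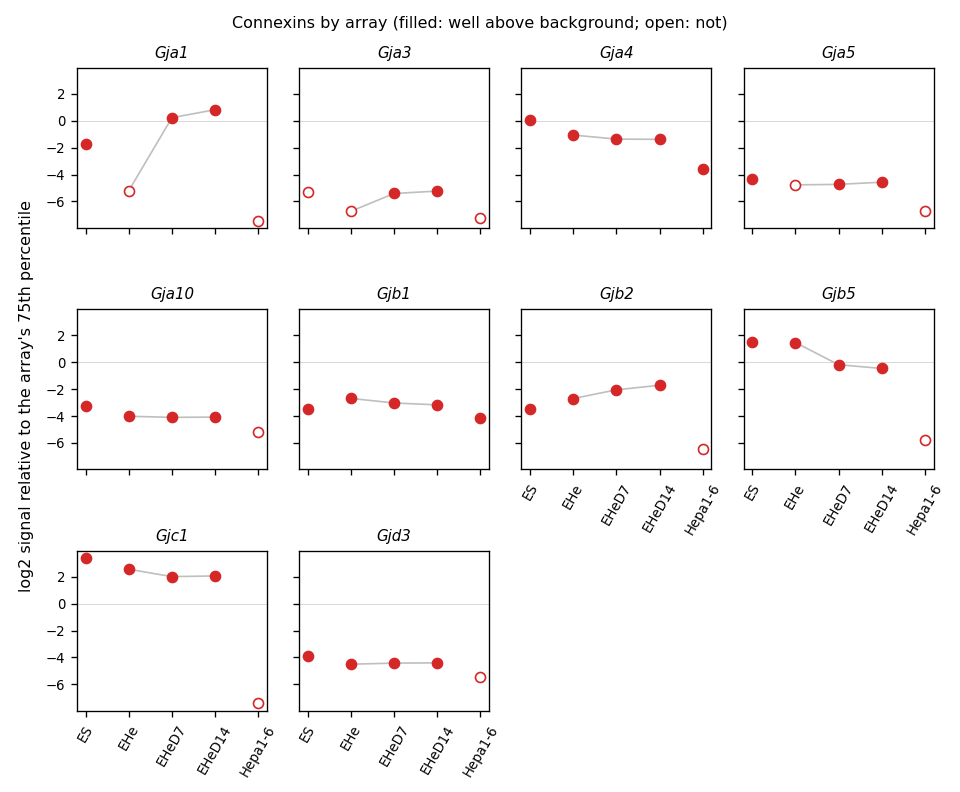
Log2 level of 10 detected connexins, relative to the 75th percentile of each array, on each of the 5 arrays. Filled points were well above background, open points were not, and the grey line joins the hybrid before and after differentiation. Gja1 is lowest in EHe among the arrays of the hybrid and highest at day 14, Gjb5 is lower after differentiation, and of those plotted only Gja4 and Gjb1 are filled in Hepa1-6.

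Among the connexins, Gja1, the most widely expressed gap junction gene, was the only one over 3-fold higher after differentiation. Its log2 levels were -1.70 in ES, 0.23 at day 7 and 0.83 at day 14, and its probe was not well above background in EHe at -5.21 and in Hepa1-6 at -7.43. Its probe was the only one of a member with repeated spots, 10 on each array, and their SD was 0.07 in ES, 0.34 in EHe, 0.07 at day 7, 0.12 at day 14 and 0.14 in Hepa1-6. The detected and the dim arrays thus stood apart by far more than the spots did, a spread that covers spot error within an array and not that between cultures. Gja1 was at least 8.83-fold lower in EHe than in ES, at least 33.6-fold above EHe at day 7 and at least 51.0-fold higher at day 14. At day 14 it was also 5.77-fold above ES and at least 70.4-fold above Hepa1-6.

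Gjb5, a beta connexin of skin and trophoblast, was lower after differentiation. Gjb5 had log2 levels of 1.49 in ES, 1.47 in EHe, -0.18 at day 7, -0.46 at day 14 and -5.82, not well above background, in Hepa1-6. It was 3.15-fold lower than EHe at day 7 and 3.80-fold lower at day 14. Both differentiated hybrids lay below both undifferentiated arrays.

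Gjc1, a connexin of the embryonic heart and vessels, had log2 levels of 3.42 in ES, 2.57 in EHe, 2.02 at day 7, 2.07 at day 14 and -7.40, not well above background, in Hepa1-6. Both of its probes gave this order of high and dim arrays, with the other probe at 2.43, 1.29, 0.77, 0.77 and, not well above background, -7.44. It was at least 422-fold lower in Hepa1-6 than in ES and 1.42-fold lower at day 14 than in EHe. Gja4, a connexin of oocytes and vessel walls, was detected on all 5 arrays, at log2 levels of 0.04 in ES, -1.06 in EHe, -1.36 at day 7, -1.38 at day 14 and -3.60 in Hepa1-6, which put it 12.4-fold lower in Hepa1-6 than in ES.

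Of the connexins of hepatocytes, Gjb1 was within 3-fold between the parents, and Gjb2 was lower in the hepatoma past 3-fold under some settings only. Gjb1, the main connexin of hepatocytes, had log2 levels of -3.45 in ES, -2.69 in EHe, -3.03 at day 7, -3.17 at day 14 and -4.14 in Hepa1-6, which was the lowest of the 5 and 1.61-fold below ES. This log2 difference of -0.69 stood beside a median of -0.42 over all named genes, and median centring moved that median to 0.37. Gjb2, which hepatocytes and the cochlea use, had log2 levels of -3.51 in ES, -2.70 in EHe, -2.05 at day 7 and -1.71 at day 14, and was not well above background in Hepa1-6. It was at least 3.48-fold lower in Hepa1-6 than in ES, and 3.47-fold higher at day 14 than in ES. The value of Gjb2 rests on 1 of its 2 probes, since the other was not well above background on any array. Also detected were Gja3, Gja5, Gja10 and Gjd3, of which Gja10 was at least 3.87-fold lower in Hepa1-6 than in ES and none passed 3-fold elsewhere among the 5 main comparisons. The probe used for Gja5 was detected in ES at -4.35, at day 7 at -4.73 and at day 14 at -4.57. Its other probe was detected in the differentiated hybrids alone, at -4.82 at day 7 and -4.76 at day 14. The differences of Gja10 and Gjb2 between the parents fell short of the limit with normexp, quantile normalization and median centring, at log2 differences from -1.17 to -1.01 for Gja10 and from -1.02 to -0.85 for Gjb2. With the mean of a gene's probes in place of the leading probe, Gjb2 had no value between the parents and was no longer counted as lower there.

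Few named genes, members among them, were past the limit between EHe and its ES parent. Between EHe and ES, 0 of 24 members were over 3-fold higher, beside 2.58% of all named genes, and 2 of 24, Cldn6 and Gja1, were over 3-fold lower, beside 3.52%. The median log2 difference was -0.52 over the 12 claudins with a value and -0.75 over 11 connexins, beside -0.14 over all named genes. Upon differentiation, 8 of 27 members were over 3-fold above EHe at day 7 (7.05% of all named genes): Cldn3, Cldn4, Cldn5, Cldn6, Cldn7, Cldn9, Cldn34c1 and Gja1. Over 3-fold lower were 3 of 27 (4.3%), Gjb5 among them. At day 14, 6 of 26 were higher (7.33%), the same genes without Cldn5 and Cldn34c1, and 3 of 26 were lower (4.74%), Gjb5 among them. The median log2 difference from EHe at day 7 was 1.94 over 12 claudins and -0.30 over 11 connexins, beside -0.07 over all named genes, and at day 14 it was 1.26 and -0.32 beside -0.05. With normexp, the claudin median was 0.62 over 15 claudins at day 7 and 0.75 over 13 at day 14. The undetected members have no such value, nor do tested members whose bound came to under 1-fold, such as Cldn10, Cldn15 and Cldn34b2 at day 7, and a gene that was detected only after differentiation could enter these counts as higher alone. Days 7 and 14 were close, with 1 of 26 members, Cldn2, over 3-fold apart (1.19%).

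**Figure D3:**
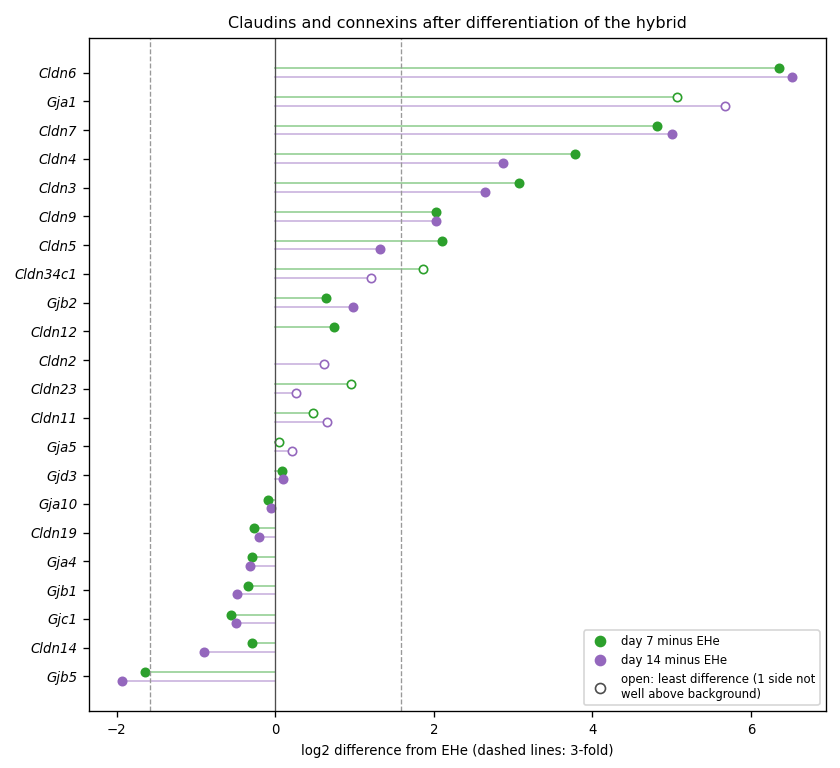
Log2 difference of claudins and connexins with a value between the differentiated hybrid and EHe, at day 7 (green) and day 14 (purple). Filled points were detected on both arrays, open points give the least difference where 1 array was not well above background, and dashed lines mark 3-fold. Cldn6, Gja1, Cldn7, Cldn4 and Cldn3 take the upper end, and Gjb5 the lower end on both days. Other claudins, such as Cldn14 and Cldn19, were slightly lower than in EHe.

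Between the parental lines, the hepatoma exceeded ES by over 3-fold for 4 of 26 members (13.9% of all named genes), all of them claudins: Cldn2, Cldn3, Cldn4 and Cldn23. Over 3-fold lower were 10 of 26 (22.2%), among them Cldn5, Cldn6, Cldn7, Gja1, Gja4, Gja10, Gjb2, Gjb5 and Gjc1. The bounds ran up to at least 86.7-fold for Cldn7, 111-fold for Gjb5 and 422-fold for Gjc1. The median log2 difference was -0.79 over 15 claudins and -1.95 over 11 connexins, beside -0.42 over all named genes. With arrays centred on their median, that of all named genes came to 0.37 and that of the claudins to -0.01. The median of the claudins less that of all genes was -0.37, and over the 6 alternatives it ran from -0.82 with signals as measured to 2.34 over the 4 claudins detected on all 5 arrays. Its sign turned with that filter and with quantile normalization, which gave 0.10. That of the connexins was -1.53 and ran from -3.22 with the mean of a gene's probes to -0.61 with normexp.

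Nearness was taken on the log2 scale. A signal not well above background was put no lower than the lowest detected signal of its array. Of the 14 members over 3-fold apart between the parents, 12 lay nearer to ES than to Hepa1-6 in EHe (88.1% of all such genes). The exceptions were Cldn6 and Gja1. Cldn6 in EHe, at -3.29, was an exception only because its dim Hepa1-6 signal of -7.24 was put at -5.3. With signals as measured, 18 of 19 members lay nearer to ES in EHe (87.5%), 17 of 19 at day 7 (78.7%) and 17 of 19 at day 14 (77.5%). In EHeD7, 12 of 14 lay nearer to ES (77.2%), with Cldn3 and Cldn23 nearer to Hepa1-6. In EHeD14, 13 of 14 lay nearer to ES (76.1%), and Cldn3 was the exception. Cldn23, at -4.58 in EHeD14, counted as nearer to ES only because its dim ES signal of -6.9 was put at -5.42. Nearer to ES does not mean between the parents. At day 14, Cldn6, Cldn7, Gja1 and Gjb2 lay 18.9-fold, 11.7-fold, 5.77-fold and 3.47-fold above ES, the higher parent for these genes. The comparisons of the differentiated hybrid with EHe and of Hepa1-6 with ES have no array in common. Of the 6 members over 3-fold higher at day 14, Cldn3 and Cldn4 also stood over 3-fold above ES in Hepa1-6 (36.5% of the 958 genes higher at day 14 that were also tested between the parents), whereas Cldn6, Cldn7 and Gja1 were over 3-fold lower there (30.5%). Of the 3 members lower at day 14, 0 were higher in Hepa1-6 (10.6% of the 644 such genes lower at day 14) and 2, Gjb5 among them, were lower (62.1%). The shares of members are made of so few genes that they are given as names and counts only.

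**Figure D4:**
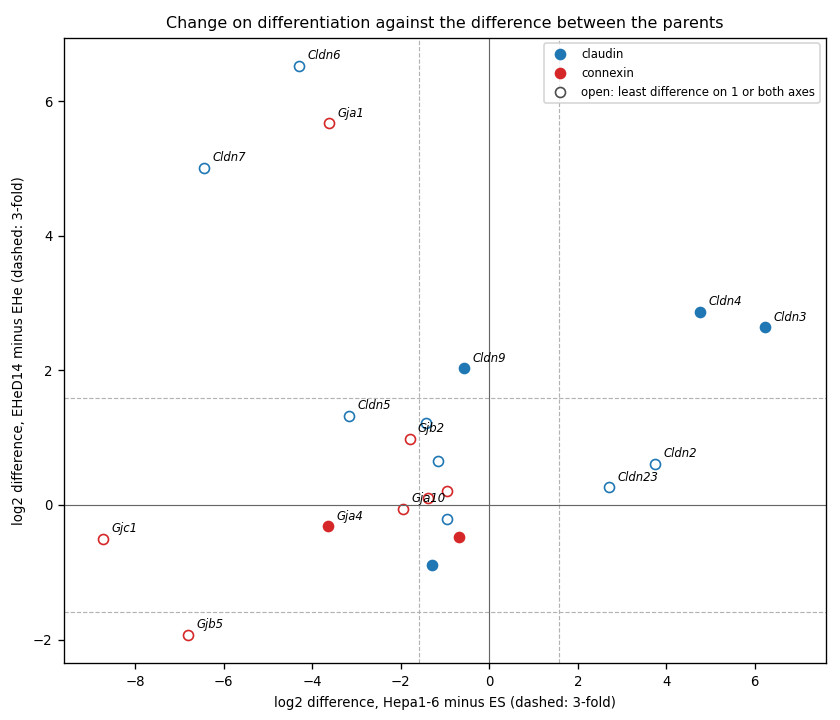
Log2 difference between EHeD14 and EHe (vertical) against that between Hepa1-6 and ES (horizontal) for members with a value in both, claudins in blue and connexins in red. Open points are least differences on 1 or both axes, and dashed lines mark 3-fold. Cldn3 and Cldn4 lie to the upper right, Cldn6, Cldn7 and Gja1 to the upper left, and Gjb5 to the lower left.

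Several members are neighbours on their chromosomes, in the gene order of the RefSeq mouse assembly GRCm38.p6, within 200 kb of each other. Cldn6 and Cldn9 lie side by side on chromosome 17, and both were over 3-fold higher on both days, by 91.6-fold and 4.08-fold at day 14. Cldn4 and Cldn3 lie on chromosome 5 next to Cldn13, which was detected on no array, and both were over 3-fold higher after differentiation and in Hepa1-6. Some neighbours also differed: on chromosome 4, Gja4 and Gjb5 lie in 1 such group, and their log2 differences from EHe at day 14 were -0.32 and -1.93. This pair does not describe its whole group. On chromosome 14, Gjb2 was detected on 4 arrays, Gja3 in the differentiated hybrids alone and Gjb6 on none. The Gja3 signal in ES, -5.33 and not well above background, was close to its -5.41 at day 7 and -5.23 at day 14. On chromosome 16, Cldn1 with Cldn16 and Cldn8 with Cldn17 were detected on no array. Whether a probe also bound the RNA of a related member was not tested.

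The 250 bases upstream of the annotated start are shown for the member with the largest difference upon differentiation, Cldn6, for the connexin that was higher, Gja1, and for Gjb5, which was lower. They come from RefSeq on GRCm38.p6, 5' to 3' along the gene's strand, at chr17:23679115-23679364 on the plus strand for Cldn6, chr10:56377050-56377299 on the plus strand for Gja1 and chr4:127358165-127358414 on the minus strand for Gjb5. Capitals mark every match, on either strand, to 4 short motifs: the E box CAGGTG bound by repressors of the Snail and Zeb type, the TATA box letters TATAAA, the GC box GGGCGG and the AP-1 site TGANTCA.
Cldn6: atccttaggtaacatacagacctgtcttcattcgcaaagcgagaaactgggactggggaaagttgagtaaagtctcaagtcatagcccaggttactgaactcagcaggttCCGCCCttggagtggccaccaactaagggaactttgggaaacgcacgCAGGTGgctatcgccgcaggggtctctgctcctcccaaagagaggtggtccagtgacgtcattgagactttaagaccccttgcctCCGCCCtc
Gja1: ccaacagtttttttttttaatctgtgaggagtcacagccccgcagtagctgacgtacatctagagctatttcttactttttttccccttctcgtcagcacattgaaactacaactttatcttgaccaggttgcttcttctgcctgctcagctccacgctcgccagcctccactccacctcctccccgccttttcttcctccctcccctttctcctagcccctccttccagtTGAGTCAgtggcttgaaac
Gjb5: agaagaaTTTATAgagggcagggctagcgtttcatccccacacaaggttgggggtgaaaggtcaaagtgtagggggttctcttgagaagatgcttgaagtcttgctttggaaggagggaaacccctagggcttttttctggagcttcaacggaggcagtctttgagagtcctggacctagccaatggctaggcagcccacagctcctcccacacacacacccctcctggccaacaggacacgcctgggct
The Cldn6 window held the E box 93 bases before the start and the GC box, on the other strand, 140 and 8 bases before it. The Gja1 window held the AP-1 site 19 bases before the start. The Gjb5 window held the TATA letters, on the other strand, 243 bases before the start, which is far from where a TATA box acts. Among the 22 detected members with such a window, the E box was found in 7, Cldn4, Cldn6, Cldn7, Cldn14, Gja3, Gjb1 and Gjb2, beside 19.4% of all 27025 genes with a window. The GC box was found in 14 members beside 35.4% of genes, the TATA letters in 5 beside 14.3% and the AP-1 site in 4 beside 7.82%. The windows of the detected members had a median GC content of 56% beside 52.4% over all genes. The values over all genes take in every gene with a window, whether or not it was detected or on the array. They are therefore not matched to the detected members, and no enrichment can be read from them. A match is a string of letters and no evidence of binding.

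The other genes of the tight junction, apart from the claudins, were read from a list of 24 genes on the array. At day 14, 7 of 24 exceeded their EHe level by over 3-fold (Ocln, Marveld2, Marveld3, Cxadr, Patj, Crb3 and Amotl2) and 1, Jam2, was over 3-fold lower, and day 7 gave the same names, beside the 7.33% and 4.74% of all named genes at day 14. Ocln, the occludin of the same strands, had log2 levels of -2.79 in ES, -3.37 in EHe, -1.08 at day 7, -1.42 at day 14 and -7.39, not well above background, in Hepa1-6. It was 3.85-fold above EHe at day 14. Marveld3, a relative of occludin, was 26.0-fold higher at day 14, and Jam2, a junctional adhesion molecule, was 130.0-fold lower. Tjp1, the scaffold that ties claudins and connexins to the cell cortex, differed by 1.40-fold. Between EHe and ES none of 23 passed the limit in either direction, and between Hepa1-6 and ES 7 of 24 were higher and 7 lower, beside 13.9% and 22.2% of all named genes.

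In a list of 19 adherens junction and desmosome genes, 1 was over 3-fold higher at day 14 and 0 were lower. The shares of all named genes were 7.33% and 4.74%. At day 7, Pkp2 and Evpl were over 3-fold higher and 0 were lower, beside 7.05% and 4.3%. Cdh1, or E-cadherin, was at log2 levels of 2.17 in ES, 2.67 in EHe, 4.07 at day 7, 3.81 at day 14 and -5.24 in Hepa1-6. It was 2.21-fold above EHe at day 14 and 170.0-fold lower in Hepa1-6 than in ES. Epcam, an epithelial adhesion protein that binds claudins, was 2.99-fold higher at day 14, Cdh2, or N-cadherin, 1.59-fold higher and the plakophilin Pkp2 4.76-fold higher. The plain count of junction genes over 3-fold higher at day 14 was thus 7 in the tight junction list and 1 in the adherens list. This difference was not tested. Of 5 tested pannexins and connexin partners, Cav1 alone passed 3-fold at day 14, at least 5.48-fold higher, and Src, a kinase that phosphorylates the Gja1 protein, was 1.81-fold higher.

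Of 19 tested repressors and activators of epithelial genes, 6 were over 3-fold above EHe at day 14 and 4 were lower. The shares over all named genes were 7.33% and 4.74%. Zeb1, a repressor of epithelial junction genes, had log2 levels of 0.78 in ES, 0.78 in EHe, -5.14 at day 7, -4.81 at day 14 and 1.70 in Hepa1-6, so that it was 47.9-fold lower at day 14 than in EHe. The repressors did not move together: Snai2 was 4.11-fold lower at day 14, Snai1 at least 5.23-fold higher, and Zeb2 1.41-fold higher after having been at least 47.0-fold higher in EHe than in ES. Grhl2, an activator of Cldn4 and Cdh1, had log2 levels of 0 in ES, -1.41 in EHe, 2.13 at day 7, 1.91 at day 14 and -0.73 in Hepa1-6, and was 10.0-fold above EHe at day 14. Tfap2c, a trophoblast and germ cell factor, was 34.9-fold lower. The part of these genes in the levels of the claudins and connexins was not tested.

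Marker lists of other cell types differed in direction upon differentiation. Over all named genes, 7.33% were over 3-fold higher at day 14 than in EHe and 4.74% lower. Of 6 simple epithelium markers, Krt7, Krt8, Krt18 and Krt19 were over 3-fold higher on both days than in EHe, and the summed level of the list was 14 in ES, 12.2 in EHe, 131 at day 7, 166 at day 14 and 388 in Hepa1-6. Of the 9 trophoblast markers on the array, 4 were over 3-fold higher at day 14, Eomes, Gata3, Hand1 and Krt7, and Tfap2c was lower, with summed levels between 6.28 in EHeD7 and 10.1 in EHe for the hybrids and Tpbpa not detected on any array. Of 10 endoderm markers, 4 were over 3-fold higher at day 14 and none were lower, with summed levels of 1.53 in EHe, 1.9 at day 7 and 3.76 at day 14 and Foxa1 not detected in these 3. Of 10 fibroblast and mesenchyme markers, 5 were higher at day 14 and 1 lower, with summed levels of 55.5, 30.5 and 34.6 on the same arrays. Of 8 neural ectoderm markers, 3 were higher and 2 lower at day 14, with summed levels of 10.3, 25.7 and 26.3. Of 8 pluripotent markers, Sox2, Zfp42, Esrrb and Klf4 were over 3-fold lower on both days. The part of these cell types in the levels of the members was not tested.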

How the data were processed

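RNA was hybridized to 5 one-colour Agilent mouse arrays, 1 per condition. The authors deposited 1 table per array from Feature Extraction 10.7.3.1, in which each spot's processed signal is an intensity corrected for background by the scanner software and not normalized between arrays. The labels give Cy3 and differentiation as a monolayer, whereas the methods give Cy5 and, for differentiation in general, embryoid bodies. For these bodies the methods name a Dulbecco mixture with serum replacement, which differs from the serum-containing medium described above. Which hybrid colony was hybridized is not given in the sources used here.

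Control and outlier spots were left out. The log2 of the deposited intensity was shifted by each array's 75th percentile (a signal of 1087 to 1456) and a probe took the mean of its spots, being detected when at least 50% of them were well above background. Probes were named through their transcript records in RefSeq (26880 of 41174 named), and a gene was read by the probe detected on most arrays, then by the highest mean. Genes detected on at least 1 of the 2 arrays were compared, with bounds for dim values, and called past 3-fold, with the same procedure for all named genes. The procedure was tested on simulated data. Alternatives were normexp with an offset of 50 on the median signal (limma 3.58.1 in R 4.3.3), quantile normalization, median centring, signals as measured, genes detected on all 5 arrays, and the mean of a gene's probes. Slide as a block could not be fitted, since Hepa1-6 had a slide of its own. With 1 array per condition the number of arrays limits the precision, and no p-value was computed.

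The members, gene lists and motifs were chosen with earlier results of these data known. Members were named, with their levels where they passed 3-fold, and of the other lists Cdh1, Ocln, Tjp1, Cdh2, Snai1, Snai2, Zeb1, Zeb2, Grhl2, Epcam and the 2 largest folds at day 14. Zeb1 and Epcam count under both parts. Some members are not reported here by name, and the counts include them. Scripts ran in Python 3.11.15 with numpy 2.4.6 and pandas 2.3.3.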

Additional observations from a re-analysis of the deposited data

How the results depend on the processing

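No paired analysis was possible because the labels give 1 array for each condition. Over the 12 counts of members and 6 alternatives, 60 of 72 values stayed within 1.5 times the count reported and none changed direction. With normexp, 0 members were over 3-fold apart between days 7 and 14, in place of 1. With genes detected on all 5 arrays, 6 members were left (Cldn3, Cldn4, Cldn9, Cldn14, Gja4 and Gjb1), by construction of that filter, and the counts fell to 0 lower in EHe than in ES, 3 higher and 0 lower at day 7 and 3 higher and 0 lower at day 14 than in EHe, 0 apart between days 7 and 14, and 2 higher and 1 lower in Hepa1-6 than in ES. Of the 3 members then over 3-fold apart between the parents, 3 lay nearer to ES in EHe, 2 at day 7 and 2 at day 14. Of the values for single genes past the limit, 28 could not be had with genes detected on all 5 arrays, by construction, and 1, Gjb2 between the parents, with the mean of a gene's probes, where it was no longer counted as lower. Of the other 193 values, 184 kept their side of the limit and 9 did not, none with a change of direction. These were Cldn34c1 at day 7 (0.58 on the log2 scale with normexp), Cldn2 between days 14 and 7 (0.64 with normexp), Cldn23 between the parents (1.09 with normexp), Gja10 between the parents (-1.01 with normexp, -1.03 with quantile normalization and -1.17 with median centring) and Gjb2 between the parents (between -1.02 with median centring and -0.85 with quantile normalization). All 5 genes rest on a bound at a low level, and the cause was not tested. Median centring moved the median difference of all genes between Hepa1-6 and ES from -0.42 to 0.37, and that between EHeD7 and EHe from -0.07 to -0.26. No member's direction depended on it among those past 3-fold.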
